A study of Mus musculus with 14 samples.

Results

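10 genes that define or serve regulatory T cells were followed in sorted spleen T cells of mice with chronic myeloid leukemia (CML). They are Foxp3, Ctla4, Il2ra, Ikzf2, Ikzf4, Nrp1, Gpr83, Lrrc32, Tnfrsf18 and Il10, and they were found by their symbols among the 24091 genes of the deposited counts. All 10 members were present and all 10 had enough reads to be tested. In 8 mice (CP CML, Mir142+/+BCR-ABL) and 6 mice (BC CML, Mir142−/−BCR-ABL), the BCR-ABL oncogene had been switched on for 3 weeks by taking the animals off tetracycline (tet-off), and RNA from 200000 T cells per mouse was sequenced as one library. CP CML stands for the chronic phase of the disease and BC CML for blast crisis. Both groups carry the SCLtTA/BCR-ABL transgenes on the C57Bl/6j CD45.2 background, in which a tetracycline-repressed activator under a blood stem cell element (SCL) drives BCR-ABL. Animals of both sexes aged 6 to 10 weeks were used in the study. Mir142 is deleted in every cell of the BC CML mice, so the T cells, the leukemia and the rest of the animal lack it together. The names of all CP CML samples carry one number after the genotype and those of all BC CML samples another. What this number marks is not given in the sources used here, and whatever it marks cannot be told apart from genotype.

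Regulatory T cells are a small subset, mostly of CD4+ T cells, that restrains other lymphocytes. Foxp3 is the transcription factor that fixes their identity, and they depend on interleukin 2 from other cells, which they bind through the high-affinity receptor chain CD25 (Il2ra). They act through contact (CTLA-4 strips costimulatory ligands from antigen-presenting cells), through cytokines (interleukin 10), and by releasing active TGF-β from its latent form on GARP (Lrrc32). None of the members apart from Foxp3 is restricted to these cells: CTLA-4, CD25 and GITR (Tnfrsf18) also appear on activated conventional T cells, and Helios (Ikzf2) is also found in other lymphocytes. Because the cells were sorted as T cells and not as regulatory T cells, each value is an average over all T cells of the spleen.

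The deleted microRNA and the places in the members where it could pair are shown because Mir142 is what separates the groups by genotype. The mature sequences come from RefSeq (GRCm38.p6, plus strand of chromosome 11), with the seed, bases 2 to 8 from the 5′ end, in capitals. The 5p arm lies at chr11:87756867-87756887 and the 3p arm at chr11:87756903-87756925.
mmu-miR-142a-5p: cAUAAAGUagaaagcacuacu
mmu-miR-142a-3p: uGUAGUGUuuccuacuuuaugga
The arms have different seeds. A site was counted where the 3′UTR held the complement of bases 2 to 8 followed by A (8mer, ACTTTATA for 5p and ACACTACA for 3p), the complement of bases 2 to 8 alone (7mer-m8), or that of bases 2 to 7 followed by A (7mer-A1). Only the sense strand of the longest 3′UTR of each gene in GENCODE vM21 (same genome build) was read. Of the 10 members, 2 held a match, both to the 5p arm. In Il10, an 8mer stood at bases 269 to 276 of a 3′UTR of 706 bases (chr1:131024537-131024544, plus strand). In Ikzf2, a 7mer-m8 stood at bases 929 to 935 of a 3′UTR of 7554 bases (chr1:69537833-69537839, minus strand). Each site is printed within 30 bases of its 3′UTR, with the match in capitals.
Il10 3′UTR: ccattggggacACTTTATAgtatttaaagg
Ikzf2 3′UTR: ttacgatcgtcACTTTATcagcattcaatc
The 3′UTRs of Foxp3 (2202 bases), Ctla4 (1115 bases), Gpr83 (1990 bases), Lrrc32 (2175 bases), Ikzf4 (3205 bases), Il2ra (3411 bases), Nrp1 (549 bases) and Tnfrsf18 (360 bases) held none of these letters for either arm. Among 11509 tested genes with a 3′UTR, 23.48% held at least 1 such match to the 5p arm and 12.11% to the 3p arm. An 8mer of the 5p arm was present in 5.22% of them. The matches are descriptions of sequence, and the genes that hold one moved in opposite directions: Il10 was lower in BC CML and Ikzf2 higher.

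Libraries held between 15703702 and 19914531 reads in CP CML and between 16145537 and 19399720 in BC CML. Mir142 had 302 to 650 reads in every CP CML mouse and 0 in every BC CML mouse, as the labels state. T cell genes were abundant in all 14 libraries. Cd3e, a chain of the T cell receptor complex, ranged from 362.9 to 433.8 CPM (normalized counts, relative to the library size as scaled by edgeR's TMM method) in CP CML and from 385.0 to 430.4 in BC CML, with a log2 fold change of 0.02 (SE 0.05, adjusted p = 0.705). The balance of coreceptor genes differed: Cd4 had a log2 fold change of -0.73 (SE 0.09, adjusted p = 4.98e-06) and Cd8a of 0.87 (SE 0.08, adjusted p = 2.38e-08), while Cd8b1 had one of 0.07 (SE 0.06, adjusted p = 0.352). Log2 fold changes are BC CML over CP CML throughout, and adjusted p-values come from the quasi-likelihood test of edgeR, with the Benjamini-Hochberg method over all 12248 tested genes, with 0.05 as the threshold.

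The members did not move together. In BC CML, 5 of the 10 were lower (Foxp3, Ctla4, Lrrc32, Ikzf4 and Il10), 3 were higher (Gpr83, Ikzf2 and Tnfrsf18), and Il2ra and Nrp1 did not pass the threshold. Changes were common in this comparison, since 65.2% of all tested genes passed it, 32.6% as higher and 32.7% as lower, so that 8 of 10 members called is not far from the background. Among the members, 5 of 10 were called with a log2 fold change of 1 or more in size, against 12.9% of all tested genes. In 7 members the mice of one group did not overlap those of the other, 5 with BC CML below and 2 above, against 36.9% of all tested genes. The members were chosen with earlier results of these data known, so these shares are descriptions and not a test of the members. The median log2 fold change of the 10 members was -0.36, and that of all tested genes was -0.01. The same 8 members were called when BC CML replicate 2, which had the fewest reads of its group, and replicate 5, whose sample name carries an unexplained suffix, were both left out.

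**Figure D1:**
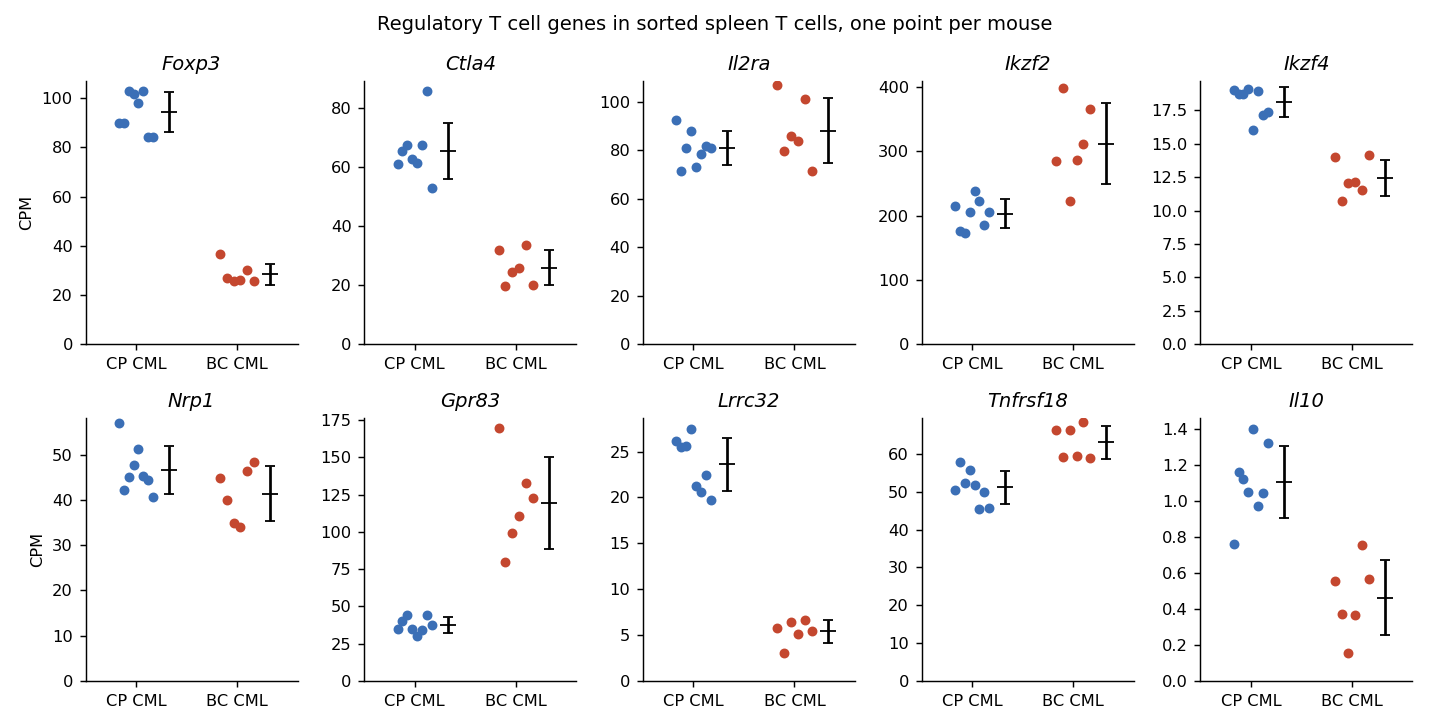
Normalized level (CPM, vertical axis from 0) of each of the 10 genes in the 8 CP CML mice (blue) and the 6 BC CML mice (red), 1 point per mouse, with the mean and SD in black. Foxp3, Ctla4, Ikzf4, Lrrc32 and Il10 of every BC CML mouse lie below every CP CML mouse, Gpr83 and Tnfrsf18 above, and Il2ra, Ikzf2 and Nrp1 overlap.

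Foxp3, the lineage factor, is listed at chrX:7579676-7595243 (plus strand). It had 84.09 CPM in the lowest CP CML mouse, a median of 94.06 and 103.0 in the highest. In BC CML the lowest mouse had 25.56 CPM, the median was 26.46 and the highest was 36.55. Every BC CML mouse was thus well below every CP CML mouse, and 4 of the BC CML mice lay between 25.56 and 26.99 CPM, with replicate 5 (30.17) and replicate 1 (36.55) above them. The mean fell from 94.2 ± 8.14 (SD, n = 8 mice) to 28.5 ± 4.32 CPM (SD, n = 6 mice), a 3.31-fold lower level with a log2 fold change of -1.73 (SE 0.08, adjusted p = 1.39e-11). A log2 fold change as low as this was reached by 0.816% of the tested genes. In bulk T cells, fewer Foxp3-expressing cells and less Foxp3 RNA in each of them cannot be told apart. The 3′ end of Foxp3 overlaps Ccdc22 on the other strand. The log2 fold change of Ccdc22 was -0.07 (SE 0.09, adjusted p = 0.517), and whether the counting used strand is not given in the sources used here.

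Interleukin 2 reaches Foxp3 through STAT5, which binds DNA at a palindrome of the form TTCNNNGAA. The RefSeq promoter windows, 250 bases before to 50 after a transcript's start, were matched for 6 of the 10 members (Foxp3, Ctla4, Il2ra, Nrp1, Gpr83 and Tnfrsf18), and Foxp3 had a pair of them. The palindrome, which reads alike on both strands, was found in the window of Tnfrsf18 and in the downstream window of Foxp3, and in 8.3% of 32851 promoters of that length. The downstream Foxp3 window, the only one of that pair with a match, is chrX:7580233-7580532 (GRCm38.p6, plus strand), printed with the match in capitals.
Foxp3 promoter window: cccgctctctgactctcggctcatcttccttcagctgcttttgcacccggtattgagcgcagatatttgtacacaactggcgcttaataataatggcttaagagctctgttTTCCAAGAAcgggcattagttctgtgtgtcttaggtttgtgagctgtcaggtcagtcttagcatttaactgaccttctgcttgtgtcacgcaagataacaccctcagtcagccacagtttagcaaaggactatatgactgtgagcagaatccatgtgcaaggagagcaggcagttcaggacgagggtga
The forkhead motif TGTTTAC, searched on both strands, was in none of these windows and in 3.65% of all promoters. These letters say nothing of binding in these cells.

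The Ikaros-family partners of Foxp3 went opposite ways. Ikzf2 encodes Helios, which stabilizes the regulatory T cell program, and is listed at chr1:69531210-69687140 (minus strand). Its level ranged from 173.5 to 238.4 CPM in CP CML (median 205.2). In BC CML the range was 222.5 to 397.8 CPM (median 299.1). The groups overlapped, because the lowest BC CML mouse lay inside the range of CP CML. The mean rose from 202.8 ± 22.9 (SD, n = 8) to 311.6 ± 62.6 CPM (SD, n = 6), with a log2 fold change of 0.62 (SE 0.11, adjusted p = 0.000181). Ikzf4 encodes Eos, a corepressor partner of Foxp3, and is listed at chr10:128632415-128645993 (minus strand). It lay between 16.04 and 19.09 CPM in CP CML (median 18.72) and between 10.72 and 14.14 in BC CML (median 12.10). All BC CML mice were below all CP CML mice, but the step was small, with a log2 fold change of -0.54 (SE 0.07, adjusted p = 3.24e-06).

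Among the surface receptors, Ctla4 fell with Foxp3. Ctla4 (chr1:60909025-60915832, plus strand) had 52.96 CPM in the lowest CP CML mouse, a median of 64.13 and 85.79 in the highest. In BC CML it had 19.82, 25.06 and 33.74 CPM in the same order. The groups did not overlap, and the mean of 65.5 ± 9.42 CPM (SD, n = 8) in CP CML was 2.52-fold above that of BC CML, 25.9 ± 5.89 CPM (SD, n = 6), with a log2 fold change of -1.34 (SE 0.13, adjusted p = 2.86e-07). CP CML replicate 7 stood apart with the highest value, and without it the log2 fold change was -1.27.

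Il2ra, the chain that gives the interleukin 2 receptor its high affinity, did not follow Foxp3. At chr2:11642792-11693194 (plus strand), it ranged from 71.57 to 92.59 CPM in CP CML (median 80.86) and from 71.27 to 106.8 in BC CML (median 85.00). The groups overlapped over most of their range. The log2 fold change was 0.12 (SE 0.08, adjusted p = 0.197), with a 95% interval from -0.04 to 0.28, so that a fall as large as that of Foxp3 lies outside it. Without BC CML replicate 6 the log2 fold change was 0.18 and the adjusted p-value 0.0455, and without replicate 1 they were 0.06 and 0.502. Il2ra stayed uncalled in 13 of the 14 fits that each left out 1 mouse.

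Tnfrsf18 encodes GITR, a costimulatory receptor that regulatory T cells carry at a high level, and is listed at chr4:156026342-156028891 (plus strand). It ranged from 45.39 to 57.83 CPM in CP CML (median 51.24) and from 59.03 to 68.46 in BC CML (median 62.91). The BC CML mice all lay above the CP CML mice by a narrow margin, with a log2 fold change of 0.30 (SE 0.06, adjusted p = 0.000175). Nrp1 encodes neuropilin 1, a semaphorin and growth factor receptor used to mark thymus-derived regulatory T cells, which dendritic cells also carry. At chr8:128359073-128505475 (plus strand) it ranged from 40.57 to 57.02 CPM in CP CML (median 45.21) and from 34.03 to 48.28 in BC CML (median 42.40). The mice overlapped, and the log2 fold change of -0.17 (SE 0.09, adjusted p = 0.0963, 95% interval from -0.35 to 0.00) did not pass the threshold, although it did without BC CML replicate 6 (-0.22, adjusted p = 0.0379). Mir1903, which lies within Nrp1, had 0 reads in every mouse.

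Gpr83 showed the steepest rise. It encodes a G protein-coupled receptor that is enriched in regulatory T cells, and it is listed at chr9:14860210-14870789 (plus strand). In CP CML it had 29.79 CPM in the lowest mouse, a median of 36.10 and 44.49 in the highest. In BC CML the corresponding values were 79.90, 116.6 and 169.5 CPM. The lowest BC CML mouse was above the highest CP CML mouse, and the BC CML mice were widely spread. The mean rose 3.18-fold, from 37.5 ± 5.15 (SD, n = 8) to 119.1 ± 30.9 CPM (SD, n = 6), with a log2 fold change of 1.67 (SE 0.14, adjusted p = 1.25e-07), which 4.65% of the tested genes matched or exceeded.

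The effector molecules were both lower. Lrrc32, which encodes GARP, the docking receptor of latent TGF-β on activated regulatory T cells, is listed at chr7:98494222-98501830 (plus strand). It had 19.75 CPM in the lowest CP CML mouse, a median of 23.98 and 27.46 in the highest. The BC CML mice had 3.054 at the lowest, a median of 5.583 and 6.662 at the highest. This was the largest fall of the 10, 4.36-fold, with a log2 fold change of -2.12 (SE 0.13, adjusted p = 3.74e-10). Il10, the gene of the cytokine interleukin 10, is listed at chr1:131019845-131024970 (plus strand) and was close to the limit of detection. It had 14 to 22 reads per CP CML mouse and 3 to 14 per BC CML mouse, or 0.764 to 1.40 CPM (median 1.09) and 0.157 to 0.758 CPM (median 0.464). The groups lay next to each other, apart in CPM by a small margin and not in reads, and the log2 fold change of -1.24 (SE 0.26, adjusted p = 0.000478) carries the largest error of the 10.

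**Figure D2:**
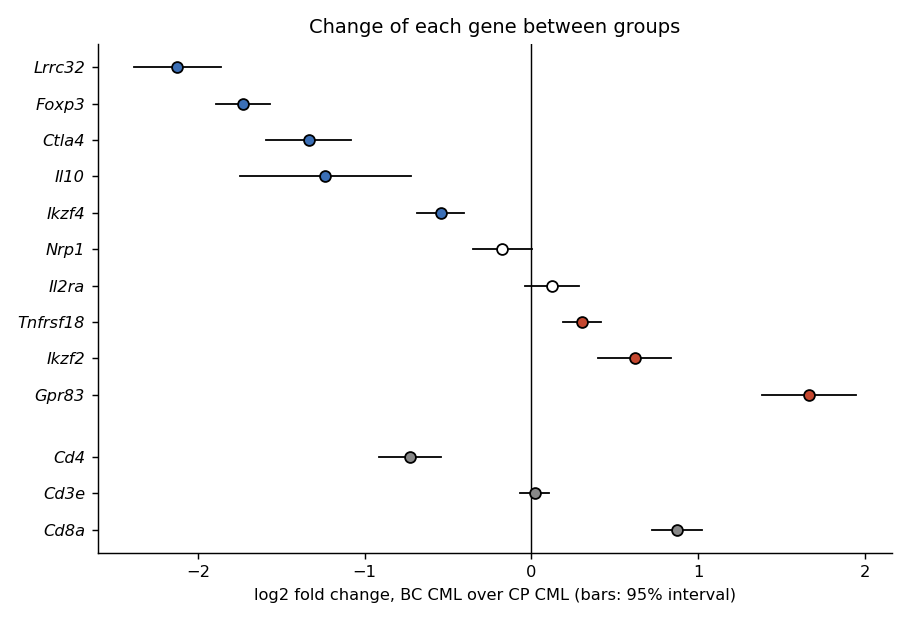
Log2 fold change (BC CML over CP CML, horizontal axis) of the 10 genes from the lowest to the highest, with 95% intervals, and of Cd4, Cd3e and Cd8a in grey. Blue points passed the threshold as lower and red points as higher in BC CML, and the open points, Nrp1 and Il2ra, did not pass it. The points run from -2.12 for Lrrc32 to 1.67 for Gpr83.

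Divided by gene length, the levels formed a different order in each group. In CP CML the mean level per kilobase of gene length (CPM per kb, lengths as deposited) was highest for Tnfrsf18 at 47.7 ± 4.03 (SD, n = 8). Ctla4 followed with 34.0 ± 4.88 and Foxp3 with 24.1 ± 2.08. Next came Ikzf2 with 18.2, Il2ra with 15.5, Gpr83 with 10.5, Lrrc32 with 6.19, Nrp1 with 4.65, Ikzf4 with 4.19 and Il10 with 0.849. In BC CML Tnfrsf18 was again first with 58.8 ± 4.05 CPM per kb (SD, n = 6). Gpr83 moved from the sixth place to the second with 33.2 ± 8.62, and Ikzf2 came next with 27.9 ± 5.61. They were followed by Il2ra with 16.9, Ctla4 with 13.4, Foxp3 with 7.28, Nrp1 with 4.12, Ikzf4 with 2.88, Lrrc32 with 1.41 and Il10 with 0.356. Neighbors in this order were mostly apart. In CP CML the ranges of mice overlapped for Tnfrsf18 and Ctla4, for Ikzf2 and Il2ra, for Lrrc32 and Nrp1, and for Nrp1 and Ikzf4, and the last of these pairs kept its order in 7 of 8 mice. In BC CML they overlapped for Gpr83 and Ikzf2, for Ikzf2 and Il2ra, and for Il2ra and Ctla4, and the first pair kept its order in 5 of 6 mice. In every other pair of neighbors the ranges were apart.

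**Figure D3:**
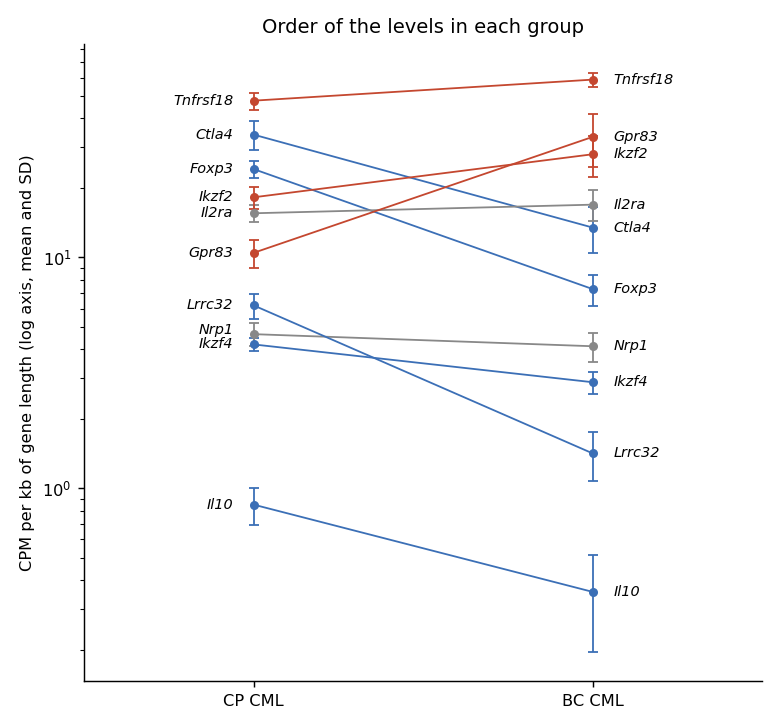
Mean level per kilobase of gene length (CPM per kb, log axis, with SD) of each gene in CP CML and BC CML, joined by a line. Red lines passed the threshold as higher in BC CML, blue lines as lower, and grey lines did not pass. Foxp3 drops below Il2ra, Ikzf2 and Gpr83, and Gpr83 rises above all but Tnfrsf18.

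Counted in reads, without division by length, the make-up of the members' pool shifted in the same way. Foxp3 supplied 15.2% of all reads of the 10 genes in CP CML (from 13.6% to 16.8% in single mice, n = 8) and 4.1% in BC CML (from 3.49% to 4.8%, n = 6). The share of Gpr83 went from 6.05% ± 0.979 to 17.1% ± 3.54, and that of Ikzf2 from 32.6% ± 3.03 to 44.6% ± 6.94 (SD).

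Because regulatory T cells carry many of these transcripts together, each member was also set against Foxp3 of the same mouse, which removes any effect of scaling between libraries. If all members had moved as Foxp3 did, these ratios would be alike in both groups. The log2 ratio was taken within each mouse, and the difference of its group means was tested by exact permutation (two-sided, over 3003 splits of the mice), whose smallest possible p-value is 0.000333, with adjustment over 10 ratios. For every 100 Foxp3 reads, Gpr83 had 30.4 to 52.9 reads in CP CML (median 41.0) and 296 to 479 in BC CML (median 433). This was the widest shift, 3.37 on the log2 scale (exact permutation p = 0.000333, adjusted p = 0.000476). The same exact p-value, with no overlap between groups, was reached by Ikzf2 (from a median of 218 to 1070 reads per 100 Foxp3 reads), Tnfrsf18 (from 54.5 to 228), Il2ra (from 83.1 to 309), Nrp1 (from 47.7 to 142) and Ikzf4 (from 19.6 to 43.3). Ikzf4 fell, but by less than Foxp3.

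Ctla4, Lrrc32 and Il10 stayed closest to Foxp3. Ctla4 had 61.7 to 102 reads per 100 Foxp3 reads in CP CML (median 65.4) and 73.5 to 112 in BC CML (median 91.3), a shift of 0.38 on the log2 scale (exact permutation p = 0.0143, adjusted p = 0.0159). Lrrc32 had medians of 25.8 and 20.4, a shift of -0.42 (exact permutation p = 0.0140, adjusted p = 0.0159), so it fell by more than Foxp3. Both sets of mice overlapped. Il10 had medians of 1.20 and 1.55 reads per 100 Foxp3 reads, a shift of 0.41 (exact permutation p = 0.142). That ratio passed the threshold without BC CML replicate 3, which had 3 reads of Il10 (0.64, adjusted p = 0.00604, exact permutation test). Without BC CML replicate 5 the shift was smaller (0.265, adjusted p = 0.315, exact permutation test).

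**Figure D4:**
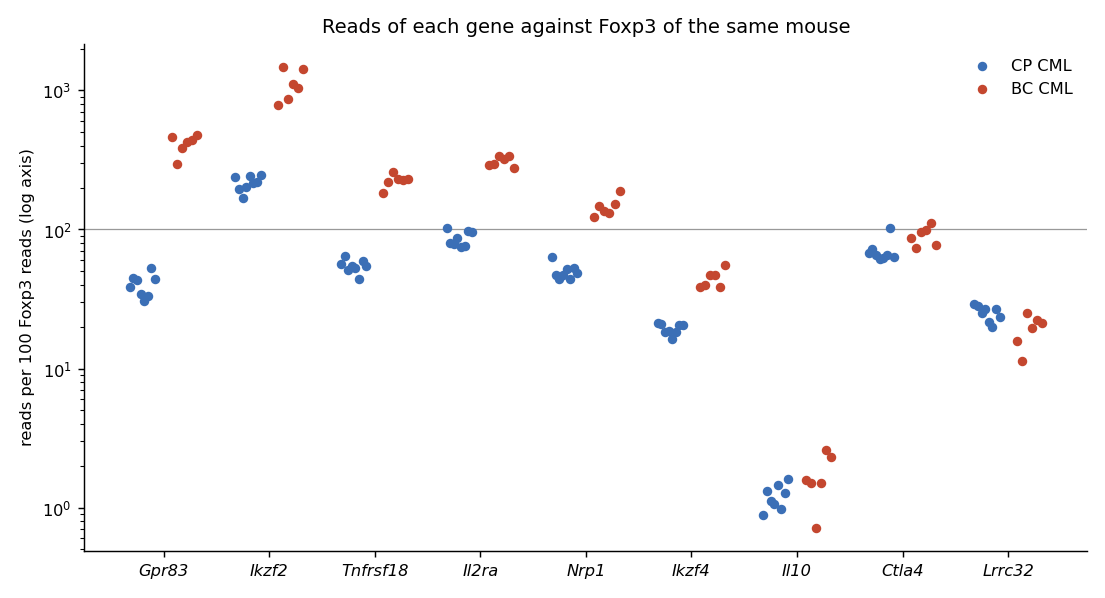
Reads of each of the 9 other genes per 100 Foxp3 reads of the same mouse (log axis), for the 8 CP CML mice (blue) and the 6 BC CML mice (red), with 0.5 added to each count. The groups are apart from Gpr83 to Ikzf4 and overlap for Il10, Ctla4 and Lrrc32.

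The fall of Foxp3 was larger than that of Cd4, the coreceptor of the T cells from which most regulatory T cells come. Per 100 Cd4 reads, Foxp3 had 21.2 to 25.8 reads in CP CML (median 23.2) and 9.32 to 13.6 in BC CML (median 12.5), a shift of -0.98 on the log2 scale (exact permutation p = 0.000333). For the other members, ratios to Cd4 were added after the data had been seen. Ctla4 (a shift of -0.61) and Lrrc32 (-1.41) were lower per Cd4 read in every BC CML mouse, and Il2ra (0.86), Ikzf2 (1.35), Nrp1 (0.57), Gpr83 (2.39) and Tnfrsf18 (1.05) were higher in every one, each with an exact permutation p of 0.000333. Ikzf4, which was lower per library, had medians of 4.61 and 5.09 reads per 100 Cd4 reads (a shift of 0.20, exact permutation p = 0.0819). Il10 was lower by 0.57 (exact permutation p = 0.0113), with overlapping mice. Per Cd3e read, also added later, Foxp3 shifted by -1.75, Ctla4 by -1.38, Lrrc32 by -2.18 and Gpr83 by 1.62 (each with an exact permutation p of 0.000333), close to the values per library.

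Within a group, mice with more Foxp3 were not shown to have more of the other members. Foxp3 itself varied little, by 0.29 on the log2 scale from the lowest to the highest CP CML mouse and by 0.51 in BC CML. Pearson's r and Spearman's rho with Foxp3 were computed on log2 CPM for 9 members in each group, which makes 18 relations. None had an adjusted p-value below 0.05 by the exact permutation test over pairings, and 1 had an unadjusted one. This was Il2ra in BC CML, with r = 0.86 (exact permutation p = 0.0194, adjusted p = 0.350) and rho = 0.77 (exact permutation p = 0.103, adjusted p = 0.846, n = 6 mice). With any single mouse left out, r stayed between 0.80 and 0.89. Without BC CML replicates 1 and 5, the mice farthest from the median of Foxp3, it was 0.12, but the 4 mice then left had nearly the same Foxp3 (25.56 to 26.99 CPM), so that value says little about the relation. Gpr83 (r = 0.76, rho = 0.49, exact permutation p = 0.0875 and 0.356) and Ctla4 (r = 0.73, rho = 0.60, exact permutation p = 0.0875 and 0.242) were next in BC CML. With single mice left out they stayed at 0.35 to 0.92 and at 0.69 to 0.77, and over the same 4 mice of nearly equal Foxp3 they were -0.88 and -0.40. In CP CML, r ranged from -0.31 (Gpr83) to 0.33 (Ikzf4) over the 9 members, with exact permutation p-values from 0.424 to 0.935.

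BC CML replicates 1 and 5, picked here for the highest Foxp3, had the highest level of the group for some other members. Between them they were highest for Ctla4, Il2ra, Gpr83, Lrrc32, Tnfrsf18 and Il10, but not for Ikzf2, Ikzf4 or Nrp1. Replicate 6, with the lowest Foxp3 (25.56 CPM), was highest for Ikzf4 (14.14 CPM) and Nrp1 (48.28 CPM). Counting Foxp3, replicate 1 was highest in 3 of the 10 members and replicate 5 in 4, and neither was lowest in any. They also had the highest Cd4, 280.2 CPM in replicate 1 and 295.2 in replicate 5, against 191.2 to 274.3 in the other 4 mice. Over all BC CML mice, Foxp3 and Cd4 gave r = 0.61 (exact permutation p = 0.188) and rho = 0.54 (exact permutation p = 0.297). Replicate 2 was lowest in 4 members but highest for Ikzf2. In CP CML no mouse was highest in more than 2 members, and replicate 8 was lowest in 4. There Foxp3 moved with the number of reads of the library (r = 0.76, exact permutation p = 0.0394, and rho = 0.76, exact permutation p = 0.0368, n = 8, with r = 0.60 without the mice farthest from the median), and the part of depth in the relations of either group was not tested. In BC CML the corresponding values were r = -0.16 (exact permutation p = 0.699) and rho = -0.77 (exact permutation p = 0.103, n = 6). Over the 4 mice of nearly equal Foxp3 r was -0.98, a value that, like the others over these mice, says little.

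**Figure D5:**
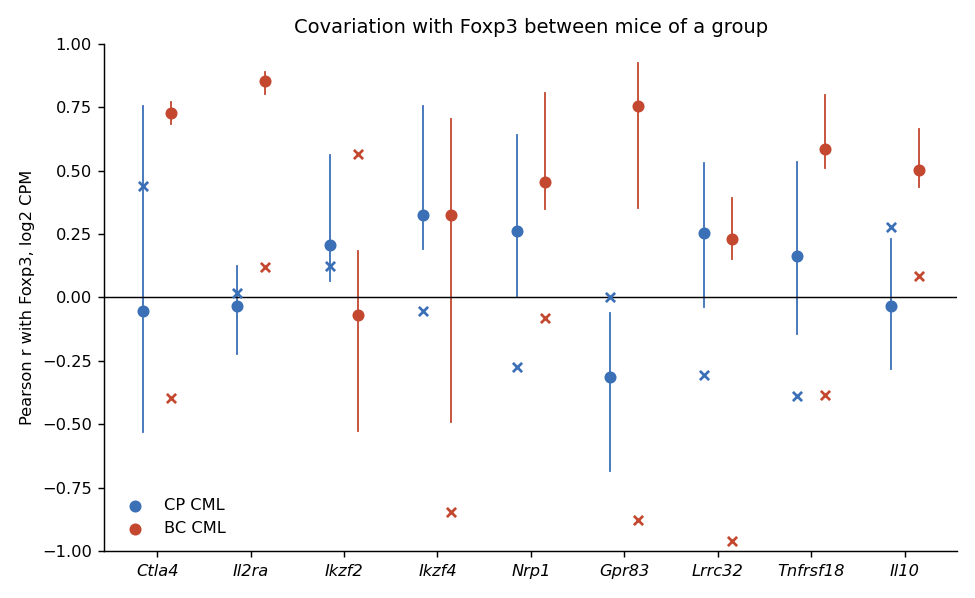
Pearson r of each gene with Foxp3 (log2 CPM) among the 8 CP CML mice (blue) and the 6 BC CML mice (red). Points use all mice of a group, bars span the values with each mouse left out in turn, and crosses leave out both mice farthest from the median of Foxp3. In BC CML the points of Il2ra, Gpr83 and Ctla4 lie above 0.7, and the crosses rest on 4 mice with nearly equal Foxp3.

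Genes whose pattern was most like that of Foxp3 were looked for among 9160 well expressed genes (average log2 CPM of at least 3), by the smaller of the within-group r over the 8 CP CML and the 6 BC CML mice. The 5 closest were Dap3 (r = 0.89 in CP CML and 0.87 in BC CML), Carmil2 (0.86 and 0.87), Cog4 (0.90 and 0.85), Cacnb1 (0.86 and 0.84) and Mdp1 (0.84 and 0.83). Between groups they did not follow one direction, with log2 fold changes of -0.38 for Dap3, -0.77 for Carmil2, 0.75 for Cog4, -1.12 for Cacnb1 and -0.12 for Mdp1. Ikzf4, the closest of the members, ranked 1063 of 9160, and Gpr83 ranked 5529. With 8 and 6 mice high values are common, since r was at least 0.7 for 5.95% of all tested genes in CP CML and for 3.45% in BC CML.

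Other genes tied to regulatory T cells had calls in both directions. The counts of this and the following lists stand beside the 65.2% of all tested genes that were called, 32.6% as higher and 32.7% as lower, and a share near these is not a result about a list. A list of 28 genes of their surface phenotype, function and effector state had 27 tested, of which 12 were higher, 7 lower and 8 not called, with a median log2 fold change of 0.27. Entpd1, which encodes CD39, an ectoenzyme that breaks down extracellular ATP, rose from 13.9 ± 1.70 (SD, n = 8) to 45.0 ± 10.7 CPM (SD, n = 6), a log2 fold change of 1.69 (SE 0.13, adjusted p = 1.35e-08). Penk, the enkephalin precursor gene (1.42, SE 0.14), and Tnfrsf9, which encodes the costimulatory receptor 4-1BB (0.97, SE 0.09), were also higher without overlap. Icos, a costimulatory receptor gene, was lower (-0.79, SE 0.08, adjusted p = 1.14e-07). Itgb8, an integrin subunit that helps to activate TGF-β, fell from 4.88 ± 1.00 to 1.34 ± 0.526 CPM (log2 fold change -1.86, SE 0.22), and Ccr6, a chemokine receptor gene, by 1.52 on the log2 scale (SE 0.18). Tnfrsf9 and Icos are equally genes of activated conventional T cells.

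The interleukin 2 pathway, on which regulatory T cells depend, was called about as often as genes at large. Of its 11 genes, all tested, 4 were higher, 3 lower and 4 not called, and the median log2 fold change was 0.04 (all tested genes, -0.01). Cish, a feedback inhibitor gene induced by STAT5, rose from 39.9 ± 4.36 (SD, n = 8) to 146.7 ± 23.2 CPM (SD, n = 6), with a log2 fold change of 1.88 (SE 0.10, adjusted p = 1.03e-10). The receptor chains Il2rb (0.88, SE 0.07) and Il2rg (0.45, SE 0.05), which are shared with the receptor of interleukin 15, were higher in every BC CML mouse. Stat5b was lower (-0.47, SE 0.04) and Jak3 slightly so (-0.20, SE 0.08, adjusted p = 0.0331, overlapping mice). Il2 had between 3 and 25 reads per mouse, and its log2 fold change of -0.91 (SE 0.38, adjusted p = 0.0470) came with overlapping groups. Of these 3 lower calls, 2 depended on single mice. That of Il2 was lost with DESeq2, with the 1 CPM filter (where it was not tested), without a filter and in 9 of the 14 fits that each left out 1 mouse, and that of Jak3 in 7 of those 14. Both were lost together, which left Stat5b as the only lower gene, without BC CML replicate 4 and without CP CML replicates 4, 5 or 6.

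Of 30 transcription factors and chromatin enzymes that act on Foxp3 or with it, 9 were higher, 11 lower and 10 not called, with a median log2 fold change of -0.04. The higher ones with the lowest p-values were Smad3, a TGF-β signal transducer (0.90, SE 0.04), Tbx21, the T-bet gene of type 1 effector cells (1.12, SE 0.11), and Bcl6, which encodes the defining transcription factor of follicular helper T cells (0.58, SE 0.08). The lower ones were Tet3, a DNA demethylation enzyme gene (-0.59, SE 0.04), Ets1 (-0.52, SE 0.05) and Tcf7 (-0.67, SE 0.07), which naive T cells also express. The 3 other Ikaros-family genes had no lower member: Ikzf3, which encodes Aiolos, was higher (0.41, SE 0.05, adjusted p = 1.39e-06), Ikzf1, which encodes Ikaros, was slightly so (0.12, SE 0.05, adjusted p = 0.0289), and Ikzf5 was not called. The call of Ikzf1 was lost in 6 of the 14 fits that each left out 1 mouse.

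Ligands and receptors that work with the members, of which 17 of 22 were tested, had 11 higher, 3 lower (Il2 among them) and 3 not called, with a median log2 fold change of 0.56. Itgav, the integrin partner of Itgb8, rose (1.19, SE 0.06, adjusted p = 1.44e-11) while Itgb8 fell. Tgfb3, a TGF-β ligand gene, rose from 3.58 ± 0.636 to 12.3 ± 1.62 CPM (log2 fold change 1.78, SE 0.12). Of the TGF-β receptor genes, Tgfbr1 was higher (0.78, SE 0.04, adjusted p = 3.8e-11) and Tgfbr2 lower (-0.21, SE 0.04, adjusted p = 0.000182). Neither had overlapping groups. The list of 12 factors linked to Il10 expression in T cells had 7 higher and 5 lower, with a median log2 fold change of 0.35. Of the lower ones, Stat3 (-0.11, adjusted p = 0.0476) and Il21r (-0.15, adjusted p = 0.0443), which were named for this after their values were seen, lost their calls in 10 and 8 of the 14 fits that each left out 1 mouse. Both were lost, leaving 3 lower genes, with RLE factors, with the 1 CPM filter, without BC CML replicates 3, 4, 5 or 6 and without CP CML replicates 2, 3 or 6, and the fewest called were 9, without BC CML replicate 5. Bhlhe40, which represses Il10, is among them and rose (1.83, SE 0.13), as did Eomes (1.73, SE 0.11) and Ahr (1.57, SE 0.11). Prdm1, which encodes Blimp-1 (-0.88, SE 0.11), Batf (-0.61, SE 0.06) and Irf4 (-0.54, SE 0.10) were lower, as Il10 itself was.

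Markers of other T cell states and of other cell types differed between the groups beside these results. All 7 genes of naive T cells were lower, and their summed level was 4890 to 6240 CPM in CP CML and 2680 to 3850 in BC CML. Of 10 genes of activated and effector T cells, 7 were higher and 1 lower (summed 535 to 657 and 786 to 1080 CPM), with Gzmb at a log2 fold change of 2.46. Of 6 natural killer cell genes, the 5 tested were all higher (95 to 135 and 333 to 593 CPM summed), and Klra4 was at 0 in every mouse. Neutrophil and monocyte genes were higher in 11 of 12 cases (74.3 to 634 and 738 to 1910 CPM), with a median of Lyz2 of 25.98 CPM in CP CML and 202.1 in BC CML. B cell genes were higher in 7 of 8 (40.8 to 152 and 74.5 to 457 CPM), and 3 of the 5 tested dendritic cell genes were higher (31.0 to 43.9 and 56.0 to 145 CPM), led by Itgax. Plasma cell genes gave 57.2 to 119 and 58.9 to 80.3 CPM, with 1 of 3 tested higher and 2 lower. Most of these sums was the higher gene, Xbp1 (means of 49.5 and 66.1 CPM). Jchain was lower without overlap, with means of 26.05 and 2.81 CPM (log2 fold change -3.22, adjusted p = 0.000223), and Sdc1 was lower too (-1.21). Basophil and mast cell genes summed to 5.24 to 12.5 CPM in CP CML and 19.4 to 52.5 in BC CML, without overlap. Most of this rise was Kit alone (means of 3.77 and 25.4 CPM). The 2 higher genes of 5 tested were Kit (log2 fold change 2.75, adjusted p = 1.82e-09) and Cpa3 (1.68, adjusted p = 0.0194, overlapping mice). Mcpt8 (0.27), Prss34 (0.01) and Gata2 (-0.14) did not pass the threshold, so the summed rise was not shared across the list. Of the erythroid genes 1 of 3 tested was higher (12.6 to 53.0 and 34.9 to 60.9 CPM), and the platelet genes summed to 3.31 to 5.82 and 2.87 to 6.32 CPM, with the 1 tested, Itga2b, lower. The endothelial and stromal list (145 to 181 and 132 to 184 CPM) was made up almost wholly of Pecam1, which leukocytes carry. T cell genes summed to 5200 to 6030 CPM in CP CML and 6570 to 7220 in BC CML, with 6 of 13 higher and 2 lower. The part of these shifts in the values of the 10 members was not tested.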

How the data were processed

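Spleen T cell RNA of 14 mice was sequenced with paired reads of 101 bases. Reads were trimmed by the authors (Trimmomatic for adapters, FASTP for polyA) and mapped to mm10 with STAR 2.6.0, and they deposited raw read counts per gene from HTSeq 0.11.1 without normalization. The submitters' processing notes also name edgeR. The annotation and the strand setting are not given in the sources used here. Counts of 24091 genes were matched to mice by column name, with 0 other value columns.

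In R 4.3.3, edgeR 4.0.16 (filterByExpr on the group, 12248 genes, TMM, robust quasi-likelihood test) compared 6 BC CML with 8 CP CML mice without covariates, in place of the study's likelihood ratio test, which was an alternative together with DESeq2 1.42.0. The SE was derived from the fold change and the F statistic, and 95% intervals are normal. CPM were computed on TMM-scaled library sizes. Replicates differed by more than sampling noise (chi-square per degree of freedom from 3.03 to 22.8). Ratios had 0.5 added to each count and correlations used a prior count of 2. Exact permutation tests ran over every split or pairing of mice in Python 3.11.15, with ranks for rho from scipy 1.17.1. Fits were tested on simulated data. P-values measure the spread between mice, 1 library each.

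Named were all 10 members, Mir142, up to 3 higher and 3 lower genes with the lowest p-values per pathway list, leading markers, and the 5 genes most like Foxp3. Members and lists were chosen with earlier results of these data known.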

Additional observations from a re-analysis of the deposited data

Results flagged for a closer look

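Among 24 groups of values (the CPM of the 10 members, Foxp3 relative to Cd4 and the total reads in each group of mice), 2 held a mouse far from the others relative to the range of its group, where chance at 1 in 20 gives 1.2. Ctla4 in CP CML replicate 7 was 85.79 CPM, the next highest mouse had 67.33, and the gap took 0.562 of the range. The total of BC CML replicate 2, 16145537 reads, lay below the next lowest, 18319039, by 0.668 of the range.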

How the results depend on the processing

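Across 7 alternatives (the likelihood ratio test, DESeq2, unscaled library sizes, RLE factors, a filter at 1 CPM in 6 samples, all genes unfiltered, and the replicate block), 7318 to 8719 genes were called, and 7721 to 7966 with each of the 14 mice left out. Between 8 and 10 members were called, and the 8 members of the main result kept their direction and their call in all 21 of these fits. Nrp1 passed with the replicate number as a block (log2 fold change -0.22, adjusted p = 0.0286; 9 members called) and without BC CML replicate 6, where all 10 were called. Whether mice sharing a replicate number were paired is not given in the sources used here. Correlations of same-numbered mice ran from -0.27 to 0.36, and the block changed no other member's call. With a pseudocount of 2, Il10 to Foxp3 shifted by 0.56 (adjusted p = 0.0256, exact permutation test). For Il2ra in CP CML, r with Foxp3 was 0.016 with library size alone. With each mouse left out, r changed sign in CP CML for Ctla4 (-0.53 to 0.76), Il2ra (-0.22 to 0.12), Lrrc32 (-0.039 to 0.53), Tnfrsf18 (-0.14 to 0.54) and Il10 (-0.28 to 0.23), and in BC CML for Ikzf2 (-0.53 to 0.18) and Ikzf4 (-0.49 to 0.70). The 0.76 of Ctla4 was without replicate 7. In the pathway lists, calls near the threshold were lost: 5 to 8 of the 11 interleukin 2 genes, 9 to 12 of the 12 Il10 genes and 16 to 21 of the 30 genes around Foxp3 were called over all 21 fits, the 16 with the replicate block. Causes were not tested. No relation passed an adjusted p-value of 0.05 in any of these fits. Depth limits Il10 and Il2, which had 3 reads in the lowest mouse.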
